A study of Mus musculus with 20 samples.

Results

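The comparison described here is that of *Eed* KO with control intestinal mesenchyme in the mouse embryo, measured in 4 RNA-seq libraries out of 20 samples in the series. Members were chosen by their labels, with 2 control and 2 *Eed* KO libraries of the intestine at E13.5, and every gene was followed while spike-in transcripts were set aside. All embryos carried Bapx1-cre and Rosa26mTmG, a reporter that replaces membrane Tomato by membrane GFP in cells with Cre activity and in their progeny. Their strain is labelled C57BL/6, while the study's notes on animals describe mixed backgrounds, also for the floxed *Eed* and Rosa26mTmG lines. Control embryos had the genotype Bapx1-cre;Rosa26mTmG, and *Eed* KO embryos were Eedfl/fl;Bapx1-cre;Rosa26mTmG. GFP+ cells were sorted from the dissected intestine, so the libraries hold cells of the *Bapx1* (*Nkx3-2*) lineage. The study describes the libraries of a group as 2 biological replicates. The labels do not give the number of embryos behind a library, so the p-values measure only the spread between these libraries, biological and technical together.

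EED is a core subunit of Polycomb repressive complex 2 (PRC2), which methylates lysine 27 of histone H3 through its catalytic subunits EZH1 and EZH2. The resulting H3K27me3 mark lies mostly over promoters of developmental regulators that a cell type does not use, many of them rich in CG dinucleotides, and keeps them at a low level of transcription. In the gut the mesenchyme forms smooth muscle and other stromal cells of the wall, and it sends the ligands that pattern the overlying epithelium.

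The promoter windows of 6 genes that rose and 1 that fell show the sequences beside which the expression values stand. They are the 250 bases before the RefSeq start on GRCm38.p6, 5′ to 3′ on the strand of the gene, with each CG dinucleotide in capitals. *Zic1* lies at chr9:91365769-91366018, minus strand, *Cdkn2a* at chr4:89294620-89294869, minus strand, *Cdkn2b* at chr4:89311033-89311282, minus strand and *Wnt2* at chr6:18030446-18030695, minus strand. *Barx1* lies at chr13:48662786-48663035, plus strand, *Prrx1* at chr1:163313651-163313900, minus strand and *Klk14*, the gene that fell, at chr7:43690168-43690417, plus strand.
Zic1: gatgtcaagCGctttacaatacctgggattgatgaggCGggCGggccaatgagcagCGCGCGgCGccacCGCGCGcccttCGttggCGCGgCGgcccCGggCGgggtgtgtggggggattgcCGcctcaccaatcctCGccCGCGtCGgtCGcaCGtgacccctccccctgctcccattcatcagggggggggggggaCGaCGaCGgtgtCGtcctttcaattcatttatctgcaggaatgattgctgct
Cdkn2a: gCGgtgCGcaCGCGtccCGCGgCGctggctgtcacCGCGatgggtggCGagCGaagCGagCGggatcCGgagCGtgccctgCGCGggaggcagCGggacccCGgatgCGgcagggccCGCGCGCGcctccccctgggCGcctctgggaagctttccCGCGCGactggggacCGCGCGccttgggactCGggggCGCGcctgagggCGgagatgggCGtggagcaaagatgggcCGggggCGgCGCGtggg
Cdkn2b: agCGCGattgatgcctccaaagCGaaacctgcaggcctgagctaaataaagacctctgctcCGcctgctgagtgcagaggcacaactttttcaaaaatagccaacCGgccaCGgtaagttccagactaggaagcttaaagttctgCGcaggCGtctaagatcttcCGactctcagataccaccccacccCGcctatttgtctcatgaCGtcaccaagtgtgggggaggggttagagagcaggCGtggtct
Wnt2: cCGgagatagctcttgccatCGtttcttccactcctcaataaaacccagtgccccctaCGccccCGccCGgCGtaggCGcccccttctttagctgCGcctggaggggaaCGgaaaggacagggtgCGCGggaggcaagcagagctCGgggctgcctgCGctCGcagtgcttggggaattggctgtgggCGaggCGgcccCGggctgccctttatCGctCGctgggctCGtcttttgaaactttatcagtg
Barx1: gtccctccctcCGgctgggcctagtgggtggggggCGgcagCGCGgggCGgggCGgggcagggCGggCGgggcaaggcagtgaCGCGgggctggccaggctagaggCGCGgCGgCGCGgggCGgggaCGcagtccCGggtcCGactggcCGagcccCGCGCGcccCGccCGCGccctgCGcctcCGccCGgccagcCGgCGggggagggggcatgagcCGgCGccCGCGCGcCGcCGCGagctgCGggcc
Prrx1: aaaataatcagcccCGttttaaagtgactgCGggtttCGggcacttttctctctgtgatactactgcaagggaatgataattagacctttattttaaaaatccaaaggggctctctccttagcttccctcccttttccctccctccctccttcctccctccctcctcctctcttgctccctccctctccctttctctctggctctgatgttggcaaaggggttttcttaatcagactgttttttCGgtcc
Klk14: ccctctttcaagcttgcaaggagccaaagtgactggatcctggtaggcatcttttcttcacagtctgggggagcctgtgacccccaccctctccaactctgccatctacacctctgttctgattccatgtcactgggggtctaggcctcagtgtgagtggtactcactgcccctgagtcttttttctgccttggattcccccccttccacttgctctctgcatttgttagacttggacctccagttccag

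The 7 windows differed widely in their CG content, searched as the letters CG, which read the same on both strands. *Cdkn2a* and *Barx1* held 40 and 40 CG dinucleotides, *Zic1* held 27, *Wnt2* held 20, *Cdkn2b* held 12 and *Prrx1* held 4, and the window of *Klk14* held none. Across the 11278 tested genes with such a window the median was 16, and 99.1% of the windows held at least 1 CG. The median was 14 among raised and 8 among lowered genes with a window, and 86.7% of the windows of lowered genes held at least 1 CG. The 7 printed windows therefore do not stand for their groups. Only 63.7% of the raised and 40.5% of the lowered genes had a window in the table used, so these medians were not compared between the groups.

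Accessibility at gene starts came from lists of ATAC-seq peaks, with 1 list per genotype called on pooled replicates of sorted intestinal mesenchyme, so it has no replicate error. A peak within 1000 bp of the start was listed for *Zic1* with a fold enrichment over the MACS2 background of 3.43 in the control and 3.06 in the *Eed* KO list, and for *Cdkn2a* with 5.79 in the control and 6.14 in the *Eed* KO list. For *Wnt2* the fold enrichment was 5.81 in the control and 4.61 in the *Eed* KO list, and for *Barx1* it was 3.4 in the control and 2.84 in the *Eed* KO list. These genes, all low in control cells, thus had a listed peak in both genotypes. Over all peaks the median fold enrichment was 3.81 in the control and 3.49 in the *Eed* KO list, and differences at single genes were not tested. *Klk14* had no peak in either list. Of the 386 raised genes, 86.8% had a control peak and 91.2% an *Eed* KO peak within 1000 bp of the start, against 87.8% and 88.9% of all genes tested. Among raised genes with a control level under 1 CPM (counts scaled to library size) the control share was 86.4%, and among all tested genes under 1 CPM it was 67%. A peak in the *Eed* KO list alone was found for 17 raised genes (4.4%) and for 1.52% of all genes tested. Under 1 CPM in the control these shares were 4.26% of raised and 4.7% of tested genes, and the *Eed* KO list was the longer, with 119181 peaks against 103808. No raised gene had a peak in the control list alone. Of the 37 lowered genes, 19 had a control peak (51.4%). Restricting the lists to a -log10 q of 5 or more lowered the control share of raised genes to 78.5% and that of all tested genes to 84.7%. With that restriction 9 raised genes had a control peak alone (2.33%, against 0.925% of all tested genes), and 24 had an *Eed* KO peak alone (6.22%, against 1.57%). Under 1 CPM in the control the restricted lists gave an *Eed* KO peak alone for 8.09% of raised and 4.33% of tested genes. The shares with a control peak alone were 2.55% and 2.39%.

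Between 30236159 and 36996971 counts fell on genes in the 4 libraries, and a count of 0 in the smallest of them allows up to 0.101 CPM, a limit that covers counting error only. Replicates correlated across genes with a Pearson r of 0.99 in the control and 0.983 in the *Eed* KO, and both pairs differed by more than sampling noise (chi-square per degree of freedom 21.3 and 86.2). *Eed* itself fell, with 38.1 and 40.1 CPM in the control libraries and 10.7 and 8.59 CPM in the *Eed* KO libraries (log2 fold change -2.02, SE 0.21, adjusted p = 0.0046 from edgeR). Both control libraries held *Xist* and Y-linked transcripts, whereas *Eed* KO replicate 1 had 0.0792 CPM of *Xist* and 119 CPM of *Ddx3y* and replicate 2 had 56.1 and 0 CPM, so the *Eed* KO libraries differed in sex and the controls were mixed. Spike-in counts were 26227 and 26837 in the controls and 14932 and 5501 with *Eed* KO, and scaling to them moved the median of all tested genes by 1.85 on the log2 scale. All changes below are therefore relative to the median gene, as TMM scaling gives them, and 384 of the 386 raised and all 37 lowered genes also passed a log2 fold change of 1 relative to the shifted median. The amount of RNA per cell, and whether it was alike in the 2 genotypes, was not measured.

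Loss of *Eed* raised far more genes than it lowered. By edgeR's quasi-likelihood test, with a Benjamini-Hochberg adjusted p below 0.05 and a change of more than 1 on the log2 scale, 386 of 16218 tested genes rose (2.38%) and 37 fell (0.228%), so that 91.3% of the calls were increases. With DESeq2 and 1 RUVg factor estimated from the spike-ins, the calls were 299 increases and 210 decreases, or 58.7% increases. The median log2 fold change was 2.20 among raised genes and -2.91 among lowered genes, values that the threshold itself helps to set. All 423 called genes had groups that did not overlap, as did 3541 tested genes higher and 2665 lower in both *Eed* KO libraries. Separate groups, given below for single called genes, are therefore shared by every call and add nothing to it. In bulk RNA, fewer cells of a type and less RNA per cell cannot be told apart.

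The raised genes were mostly low in control cells, with a median of 0.597 CPM there and 3.13 CPM with *Eed* KO, while all tested genes had a median of 18.2 CPM in the control. Of the 444 tested genes with a control level under 0.1 CPM, 80 rose (18%), and of the 2813 genes from 0.1 to 1 CPM, 155 rose (5.51%). The share was 3.88% of 3350 genes from 1 to 10 CPM and 0.29% of 7229 genes from 10 to 100 CPM. None of the 2382 genes above 100 CPM in the control was called in either direction. Genes with a low control level entered the test only where some other group reached the count filter, so the shares in the lowest bands describe the genes tested and not all silent genes. Lowered genes started higher, at a median of 3.69 CPM, and ended at 0.243 CPM.

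**Figure D1:**
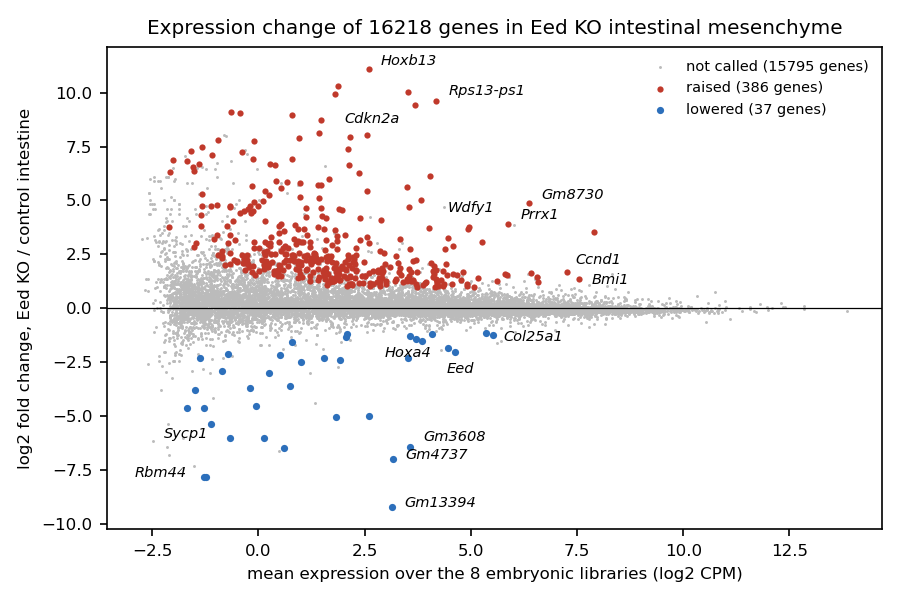
Each point is a gene, with its mean level over the 8 embryonic libraries of the fit (log2 CPM) on the horizontal axis and its log2 fold change between *Eed* KO and control intestine on the vertical axis, red for the 386 raised, blue for the 37 lowered and grey for all other tested genes. Raised genes spread from low to middle levels and reach a fitted change of 11.10 for *Hoxb13*, which has no counts in the controls and whose value depends on the prior count of the fit, and lowered genes reach -9.21 for Gm13394.

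Directions mostly held when single libraries were left out, while many calls did not. When each of the 4 intestinal libraries was left out in turn, 359 of the 386 raised genes and 36 of the 37 lowered genes still changed in the same direction by more than 1 on the log2 scale each time. The call itself survived every omission for 51 raised and 11 lowered genes. Without control replicate 1, 60 genes were raised and 14 lowered, and without control replicate 2 these counts were 86 and 11. Without *Eed* KO replicate 1 they were 338 and 25, and without *Eed* KO replicate 2 they were 175 and 28. Over the 4 omissions, raised T-box genes numbered 3 to 5, Gata genes 0 to 3, Pax genes 0 to 2, Hox genes 2 to 6, inhibitors of cyclin-dependent kinases 1 to 4 and endothelial markers 1 to 4. Genes called with every omission included *Hoxb13*, *Hoxb9*, *Tbx5*, *Tbx15*, *Tbr1*, *Vax2*, *Barx1*, *Prrx1*, *Cdkn2a*, *Bmi1*, *Sox2* and *Sox18* among the raised and *Eed*, *Hoxa4* and *Hoxb5* among the lowered. In these fits the lone remaining library is assumed to vary like the other groups.

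Transcription factors that specify organs elsewhere in the embryo formed a large class of the raised genes. Among 321 tested transcription factor genes outside the numbered zinc finger genes, 76 rose (23.7%) and 4 fell, with a median log2 fold change of 0.66, or 0.59 with genes absent from a group at their bound against 0.01 over all genes tested. By contrast, 1 of 358 numbered zinc finger genes rose, Zfp804a. The families were listed with earlier results of these data known.

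**Figure D2:**
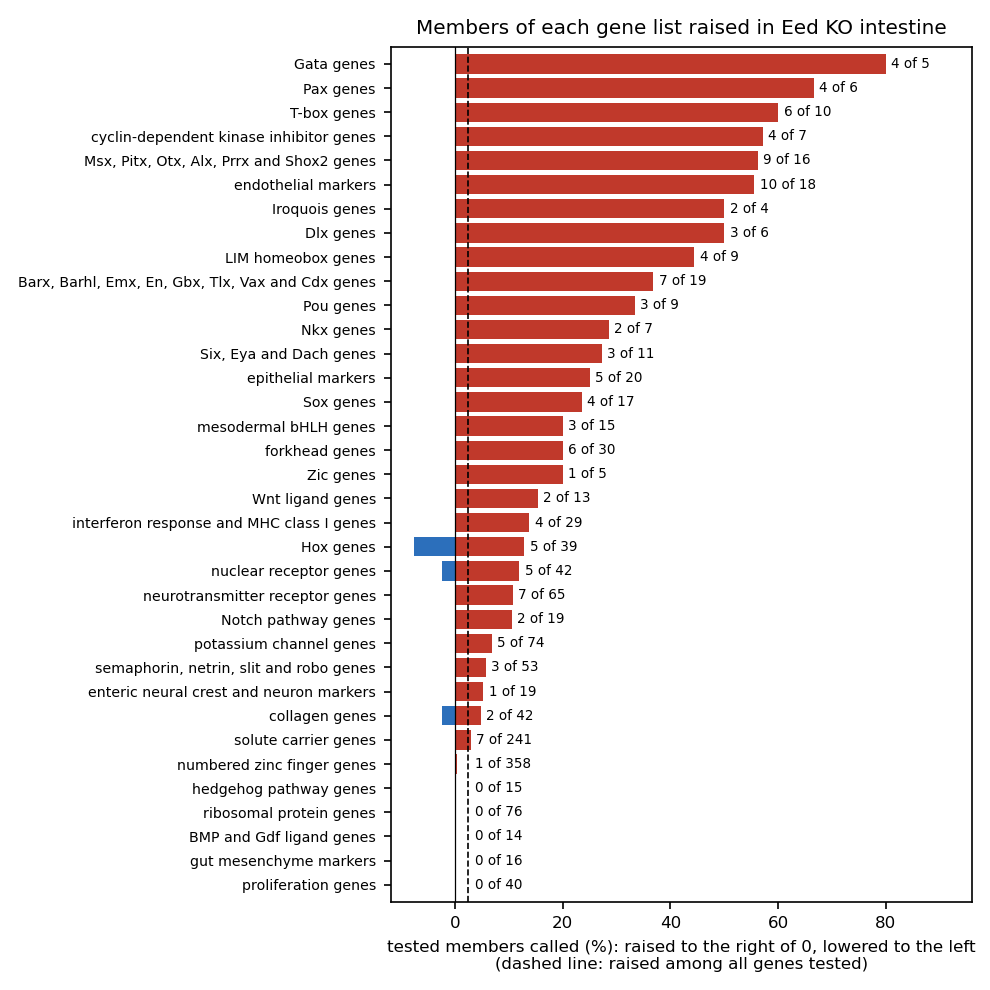
Bars give the percentage of tested members of each gene list that were raised (red, right of 0) or lowered (blue, left of 0) in *Eed* KO intestine, with the number raised of the number tested beside each bar and the 2.38% of all genes tested as a dashed line. Families of developmental transcription factors stand at the top with 4 of 5 Gata and 6 of 10 T-box genes, and proliferation, ribosomal protein and hedgehog pathway genes stand at 0.

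T-box genes, which pattern limbs, heart and body axis, rose in 6 of 10 tested members (median log2 fold change 3.38). *Tbx5*, a factor of forelimb and heart, had no counts in either control library and 2.51 and 4.37 CPM with *Eed* KO, at least 74-fold higher against the floor of 3 counts over the 2 control libraries. *Tbx15*, known from dermal and skeletal mesenchyme, was at 0.0281 and 0.168 CPM in the control libraries and 5.38 and 9.47 CPM in the *Eed* KO libraries (log2 fold change 6.27, SE 0.53, adjusted p = 0.0024 from edgeR). *Tbr1*, a neuronal factor, rose from 0.0843 and 0.0337 to 1.98 and 2.65 CPM, and the cardiac factor *Tbx20* from 0.14 and 0.606 to 4.96 and 8.33 CPM. The groups did not overlap for any of these genes. *Tbx18* and *Tbx4* completed the raised members, with log2 fold changes of 2.55 and 2.53, and *Tbx3*, already at 14.1 and 19 CPM in the controls, did not pass (log2 fold change 0.83, adjusted p = 0.17 from edgeR).

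Gata genes encode zinc finger factors of heart, gut, blood and other mesoderm, and 4 of 5 tested members rose (median 3.01 on the log2 scale). *Gata4*, a factor of the heart and foregut, was at 1.01 and 1.38 CPM in the control libraries and 10.2 and 20.5 CPM in the *Eed* KO libraries (log2 fold change 3.69, SE 0.36, adjusted p = 0.0034 from edgeR). *Gata6* was the most abundant, with 12.7 and 22.1 CPM in the controls against 45.6 and 38.8 CPM with *Eed* KO (log2 fold change 1.28, SE 0.25, adjusted p = 0.04 from edgeR). The groups were separate for both genes. *Gata2* and *Gata5* rose by 3.36 and 2.45 on the log2 scale, and *Gata3* had a log2 fold change of 3.01 that did not pass (adjusted p = 0.11 from edgeR).

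Several homeobox families outside the Hox clusters rose from little or nothing. Pax genes, regulators of eye, kidney, muscle and skeleton, rose in 4 of 6 tested members (median log2 fold change 5.71, or 3.76 with genes absent from a group at their bound). *Pax6*, a regulator of eye and pancreas, had no counts in the controls and 0.712 and 2.23 CPM with *Eed* KO, at least 31.3-fold higher. *Pax3* of the muscle precursors was at least 7.76-fold higher by the same floor, and *Pax2* and *Pax9* rose by 4.75 and 3.91 on the log2 scale. *Vax2*, a gene of the ventral eye, was silent in both controls and reached 3.67 and 5.28 CPM, at least 96.7-fold higher. *Zic1*, a zinc finger factor of neural and somitic cells, was also silent in the controls and reached 2.35 and 5.05 CPM, at least 79.4-fold higher. Its promoter window, printed above, held 27 CG dinucleotides. All 5 tested Zic genes had positive values (median 5.03, or 3.65 with genes absent from a group at their bound on the log2 scale), of which *Zic1* alone passed with edgeR and 3 with DESeq2.

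Dlx genes pattern the jaw, limb and forebrain, and 3 of 6 members rose. *Dlx6* had no counts in the controls and 1.42 and 2.31 CPM with *Eed* KO, at least 40.3-fold higher, and *Dlx4* was at least 16.7-fold higher. LIM homeobox genes rose in 4 of 9 members, led by *Lhx9* with 2 counts in the controls and 172 with *Eed* KO, a 77-fold ratio (95% counting interval 21 to 641). *Isl1*, which marks cardiac and pyloric mesenchyme, rose from 3.46 and 4.95 to 15.3 and 11.3 CPM. *Nkx6-1*, a gene of the pancreas and spinal cord, was at least 20.0-fold higher in the intestine. *Eya2* and *Eya4*, which encode transcriptional coactivators, rose by 2.51 and 2.23 on the log2 scale.

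The Msx, Pitx, Otx, Alx, Prrx and *Shox2* genes, many of them factors of limb and craniofacial mesenchyme, rose in 9 of 16 tested members, and all 16 had positive values (median 2.93, or 2.20 with genes absent from a group at their bound on the log2 scale). *Prrx1*, a factor of limb bud mesenchyme, was at 0.899 and 1.51 CPM in the control libraries and 16.6 and 19.8 CPM in the *Eed* KO libraries (log2 fold change 3.93, SE 0.28, adjusted p = 0.001 from edgeR), with separate groups. *Alx1*, *Msx2* and *Shox2* rose by 5.71, 4.74 and 4.59 on the log2 scale, and *Msx1* and *Prrx2* by 2.05 and 1.67. *Barx1*, the homeobox gene that marks stomach mesenchyme, was at 0.534 and 1.48 CPM in the control libraries and 9.47 and 13.2 CPM in the *Eed* KO libraries (log2 fold change 3.53, SE 0.37, adjusted p = 0.0047 from edgeR), with both *Eed* KO libraries above both controls. *En1*, *En2*, *Emx2*, *Evx1* and *Hhex*, of the same list, also rose, with *Emx2* and *En2* without counts in the controls and at least 12.5-fold and 9.25-fold higher.

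Sox genes rose in 4 of 17 members. *Sox2*, known from foregut epithelium and neural progenitors, was at 0.225 and 0.538 CPM in the control libraries and 3.54 and 4.34 CPM in the *Eed* KO libraries (log2 fold change 3.39, SE 0.38, adjusted p = 0.0061 from edgeR), and *Sox9*, a cartilage and progenitor factor, at 0.983 and 1.18 CPM in the controls against 3.85 and 5.19 CPM with *Eed* KO (log2 fold change 2.07, SE 0.22, adjusted p = 0.0053 from edgeR). Neither gene showed overlap between the groups. Forkhead genes rose in 6 of 30 members, among them the mesenchymal *Foxd1*, *Foxd2*, *Foxc1* and *Foxc2*, with log2 fold changes of 5.44, 4.63, 3.32 and 2.96. The Pou3 genes of the brain and kidney, *Pou3f2*, *Pou3f3* and *Pou3f4*, rose by 4.69, 3.01 and 2.67, and were the raised members among 9 tested Pou genes. Mesodermal bHLH genes rose in 3 of 15 members and nuclear receptor genes in 5 of 42. In the nuclear receptor list *Nr1h5* fell (-2.99). None of the 11 Meis, Pbx and Pknox genes, which encode cofactors of Hox proteins, was called by edgeR (0 above and 1 below 0 at an unadjusted p under 0.05, and 0 raised and 0 lowered by DESeq2).

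Hox genes, which assign position along the body and gut axis, moved in both directions. Of 39 tested, 5 rose and 3 fell (median log2 fold change 0.66), while DESeq2 called 11 raised and 4 lowered. The raised members were *Hoxb13*, *Hoxb9*, *Hoxc9*, *Hoxc11* and *Hoxc13*, which lie toward the 5′ ends of the HoxB and HoxC clusters. *Hoxb13*, a gene of the tail bud and hindgut end, had no counts in the controls and 6.49 and 8.84 CPM with *Eed* KO, at least 166-fold higher. *Hoxb9* rose from 0.759 and 0.538 to 17 and 17.2 CPM (log2 fold change 4.70, SE 0.24, adjusted p = 0.00047 from edgeR). *Hoxc9* rose from 6.69 and 5.82 to 18.3 and 15.3 CPM and *Hoxc11* from 1.1 and 0.639 to 4.96 and 3.28 CPM. All 4 genes had separate groups. *Hoxc13* was at least 11.3-fold higher. By edgeR no gene of the HoxA and HoxD clusters was raised, with *Hoxa10* at 27.6 and 24.2 CPM in the controls against 57.3 and 31.5 CPM with *Eed* KO (log2 fold change 0.78, adjusted p = 0.24 from edgeR) and *Hoxa11* at a log2 fold change of 0.29 (adjusted p = 0.69). *Hoxa13* and *Hoxd13* had log2 fold changes of 1.22 and 1.15 and adjusted p-values of 0.065 and 0.13.

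The lowered Hox genes belong to paralogue groups 4 and 5 of the HoxA and HoxB clusters. *Hoxa4* fell from 39.3 and 32.6 to 9.21 and 10.7 CPM (log2 fold change -1.85, SE 0.14, adjusted p = 0.0013 from edgeR), *Hoxa5* from 42.4 and 41.6 to 19 and 19.3 CPM (-1.13 on the log2 scale) and *Hoxb5* from 19.9 and 20.5 to 9.08 and 8.59 CPM (-1.19 on the log2 scale). These decreases are relative to the median gene, and with scaling to the spike-ins alone the log2 fold changes of *Hoxa4*, *Hoxa5* and *Hoxb5* became 0.03, 0.72 and 0.64. The antisense transcript *Hoxaas2*, also of the HoxA cluster, fell by 1.34 on the log2 scale. *Hottip*, a long noncoding RNA at the 5′ end of the cluster, had no counts in the controls and was at least 8.65-fold higher with *Eed* KO.

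**Figure D3:**
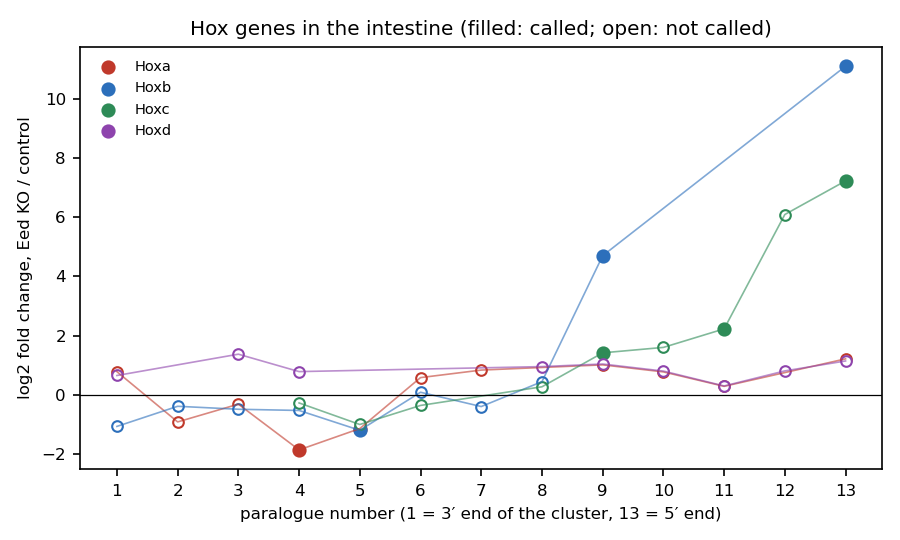
Points give the log2 fold change of each tested Hox gene between *Eed* KO and control intestine by paralogue number, from the 3′ to the 5′ end of each cluster, with filled points for called genes. The points rise toward the 5′ end in HoxB and HoxC, up to a fitted 11.10 for *Hoxb13*, and the lowered points are *Hoxa4*, *Hoxa5* and *Hoxb5*, which lie below 0 with TMM scaling and above 0 with spike-in scaling.

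Over all lists of signalling genes, 21 of 390 tested members rose (5.38%, against 2.38% of all genes tested) and 0 fell. Among Wnt ligands, the signals that act on stem cells and mesenchyme through beta-catenin and other routes, 2 of 13 tested rose. *Wnt2* was at 0.0562 and 0.202 CPM in the control libraries and 1.74 and 2.94 CPM in the *Eed* KO libraries (log2 fold change 4.20, SE 0.68, adjusted p = 0.022 from edgeR), and *Wnt6* was at 0.618 and 0.269 CPM in the controls against 1.64 and 2.37 CPM with *Eed* KO (log2 fold change 2.14, SE 0.39, adjusted p = 0.033 from edgeR). Both were separate between genotypes but low in absolute level. *Wnt11* was at 6.69 and 5.75 CPM in the controls against 13.1 and 8.79 CPM with *Eed* KO and did not pass (log2 fold change 0.82, adjusted p = 0.1 from edgeR), and *Wnt5a*, the most abundant ligand of the list, was at 475 and 382 CPM in the controls against 388 and 388 CPM with *Eed* KO with overlapping groups. *Lef1*, which encodes a nuclear factor of the Wnt pathway, rose from 0.197 and 0.505 to 2.45 and 2.2 CPM (log2 fold change 2.76, SE 0.41, adjusted p = 0.016 from edgeR), and *Ccnd1* was the other raised member of 14 Wnt response genes. *Rspo4*, an R-spondin that enhances Wnt signalling, rose by 3.01 on the log2 scale.

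In the Fgf list 3 of 19 tested members rose, the receptor gene *Fgfr3* (1.12 on the log2 scale) and the intracellular *Fgf11* and *Fgf14* (1.01 and 2.02). In the Notch list the ligand genes *Dll4* and *Jag2* rose, by 2.42 and 1.41 on the log2 scale. *Igfbp3*, which encodes a binding protein of insulin-like growth factors, rose from 10.6 and 11.9 to 34.7 and 33.6 CPM, and *Crabp1*, a retinoic acid binding protein, from 15.6 and 9.52 to 39.3 and 40.5 CPM. For both genes the *Eed* KO libraries lay above the controls. No gene was called by edgeR among 14 BMP and Gdf ligands (2 above and 1 below 0 at an unadjusted p under 0.05, and 1 raised and 0 lowered by DESeq2), nor among 15 hedgehog pathway genes (2 above and 0 below 0 at an unadjusted p under 0.05, and 0 raised and 0 lowered by DESeq2).

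Inhibitors of the cell cycle rose in 4 of 7 members (median 1.55 on the log2 scale). *Cdkn2a*, which encodes p16Ink4a and p19Arf and lies at chr4:89274471-89294653 on the authors' build mm10, had 1 count in the controls and 945 with *Eed* KO, or 0.0281 and 0 CPM against 10.3 and 15.8 CPM. That is a 846-fold ratio (95% counting interval 151 to 33449). Its neighbour *Cdkn2b*, which encodes p15Ink4b, had 2 counts in the controls and 120 with *Eed* KO, a 53.7-fold ratio (95% counting interval 14.5 to 449). Neither gene overlapped between genotypes, and both had a listed peak within 1000 bp of the start in both genotypes. The window and the peak search took the outermost start of each gene, and any other start of *Cdkn2a* was not examined. *Cdkn1a*, which encodes p21, rose from 1.66 and 1.08 to 4.62 and 7.7 CPM (log2 fold change 2.16, SE 0.34, adjusted p = 0.02 from edgeR), and *Cdkn2c* rose from 9.22 and 13 to 25.5 and 39.4 CPM (log2 fold change 1.55, SE 0.29, adjusted p = 0.035 from edgeR). Of 18 p53 response genes, *Pmaip1* and *Eda2r*, which act in cell death, and *Cdkn1a* were raised.

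*Ccnd1*, the D-type cyclin that drives entry into the cycle, rose as well, with 90.6 and 56.6 CPM in the control libraries and 214 and 261 CPM in the *Eed* KO libraries (log2 fold change 1.69, SE 0.23, adjusted p = 0.012 from edgeR). *Bmi1*, a subunit of Polycomb repressive complex 1 that is known to repress *Cdkn2a*, was the called member of 21 PRC1 genes, with 101 and 97.9 CPM in the controls against 268 and 236 CPM with *Eed* KO (log2 fold change 1.34, SE 0.12, adjusted p = 0.0026 from edgeR). For both genes the lowest *Eed* KO value was more than the highest control value. None of 40 proliferation genes, which serve DNA replication and mitosis, was called by edgeR (0 above and 9 below 0 at an unadjusted p under 0.05, and 0 raised and 0 lowered by DESeq2), although their median was -0.21 against 0.01 over all genes. At any p, 35 of the 40 lay below 0 and 5 above, while of all 16218 tested genes 7933 lay below and 8283 above. The other PRC2 genes did not pass, with *Ezh2* at a log2 fold change of -0.09 and *Suz12* at -0.13. *Bahd1*, which encodes a heterochromatin protein with a bromo-adjacent homology domain, rose from 17.6 and 18.7 to 44.7 and 52.7 CPM (log2 fold change 1.42, SE 0.13, adjusted p = 0.003 from edgeR).

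**Figure D4:**
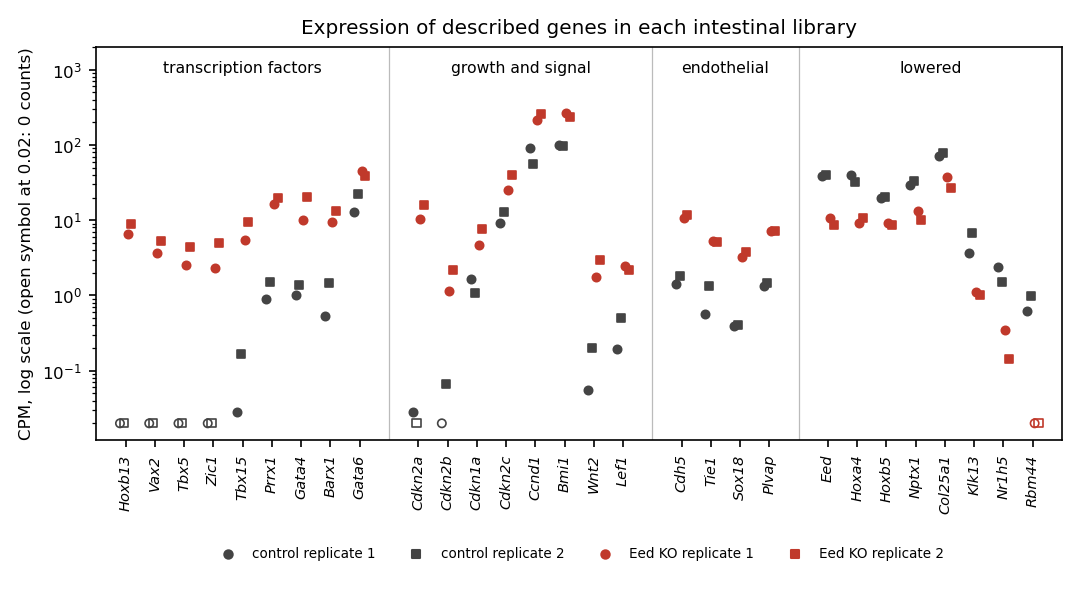
Points give the level of described genes in each of the 4 intestinal libraries in CPM on a log axis, dark for control and red for *Eed* KO, with circles for replicate 1, squares for replicate 2 and open symbols at 0.02 for libraries without counts. No gene in the plot overlaps between genotypes, and *Hoxb13*, *Vax2*, *Tbx5* and *Zic1* have no counts in either control library.

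Markers of vascular endothelium, a cell type other than the labelled mesenchyme, rose in 10 of 18 members (median 2.01 on the log2 scale). *Cdh5*, which encodes VE-cadherin, was at 1.43 and 1.82 CPM in the control libraries and 10.7 and 11.9 CPM in the *Eed* KO libraries (log2 fold change 2.80, SE 0.35, adjusted p = 0.0097 from edgeR). *Sox18*, a factor of vessels, was at 0.393 and 0.404 CPM in the controls against 3.25 and 3.79 CPM with *Eed* KO (log2 fold change 3.13, SE 0.27, adjusted p = 0.0025 from edgeR), and *Plvap*, a protein of endothelial fenestrae, at 1.35 and 1.45 CPM in the controls against 7.18 and 7.19 CPM with *Eed* KO (log2 fold change 2.36, SE 0.36, adjusted p = 0.019 from edgeR). The 2 genotypes were separate for all these genes. *Tie1*, *Robo4*, *Flt1*, *Cldn5* and *Sox17* rose too, *Sox17* from no counts in the controls to at least 8.95-fold more. *Pecam1*, at 2.53 and 3.5 CPM in the controls against 10.3 and 9.27 CPM with *Eed* KO, had an adjusted p of 0.051 from edgeR, and *Kdr*, the most abundant of the list, had a log2 fold change of 1.12 and an adjusted p of 0.073. The other uncalled members, with log2 fold changes in brackets, were *Emcn* (1.48), *Prox1* (0.67), *Egfl7* (0.31), *Flt4* (0.30), *Tek* (0.23) and *Lyve1* (-0.47). The summed level of all 18 markers was 34.8 and 44.4 CPM in the controls and 94.1 and 98.4 CPM with *Eed* KO, and none of them was under 0.1 CPM in all 4 libraries. More endothelial cells in the sort and more of these transcripts per sorted cell cannot be told apart, and the part of such cells in the raised counts, among them *Dll4*, *Tal1*, *Erg* and *Esam*, was not tested.

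Epithelial markers rose in 5 of 20 members, *Sox17*, *Esrp1*, *Foxa1*, *Sox2* and *Spint1* (list median 2.38), and in 10 with DESeq2, while the summed level of the list was 92.9 and 139.7 CPM in the controls and 122 and 103 CPM with *Eed* KO, with the 2 groups overlapping. At an unadjusted p under 0.05 from edgeR, 14 members lay above 0 and 0 below, and at any p 16 lay above and 4 below. *Krt19*, the most abundant epithelial marker, was at 32.1 and 58 CPM in the controls against 29.9 and 29.6 CPM with *Eed* KO. It is also on the mesothelial list, and its mean of 37.4 CPM over the 4 libraries makes up much of the epithelial sum. *Epcam*, at 4.19 and 3.87 CPM in the controls against 9.5 and 6.62 CPM with *Eed* KO, had a log2 fold change of 1.00 which lies just under the threshold of 1. The part of epithelial cells in the result was not tested. Markers of gut mesenchyme, from the lineage that was sorted, had no call among 16 by edgeR (2 above and 3 below 0 at an unadjusted p under 0.05, and 1 raised and 0 lowered by DESeq2) and a median of 0.03. The labelled cell type was present, with summed values of 15754 and 19806 CPM in the controls and 14469 and 22671 CPM with *Eed* KO. Smooth muscle markers had 1 raised gene of 17, *Hspb1*, with 14 above 0 and a median of 0.40, and enteric neural markers 1 of 19, *Stmn2*, with 15 above 0 and a median of 0.89, while their summed level was 351 and 371 CPM in the controls and 306 and 329 CPM with *Eed* KO. Interstitial cell of Cajal markers had no call by edgeR among 6 (1 above and 3 below 0 at an unadjusted p under 0.05, and 0 raised and 0 lowered by DESeq2) and summed to 625 and 580.3 CPM in the controls and 442 and 453 CPM with *Eed* KO. Mesothelial markers had none among 9 (1 above and 2 below 0 at an unadjusted p under 0.05, and 0 raised and 0 lowered by DESeq2) and summed to 912 and 1095 CPM in the controls and 773 and 790.1 CPM with *Eed* KO. Pericyte markers had no call by edgeR among 7 and a median of -0.15. At an unadjusted p under 0.05, 0 lay above and 3 below 0, and DESeq2 called 0 raised and 0 lowered. Their summed level was 1078 and 1220 CPM in the controls and 681 and 1015 CPM with *Eed* KO. The Cajal, mesothelial and pericyte sums were lower in the 2 *Eed* KO libraries than in the controls. The part of these cells in the lowered counts was not tested. Of 17 macrophage and leukocyte markers, 5 were under 0.1 CPM in every library, among them the pan-leukocyte gene *Ptprc*, and the list summed to 16.9 and 18.7 CPM in the controls and 15.5 and 14.8 CPM with *Eed* KO. Cartilage and skeletal markers rose in 3 of 13 members (23.1%, *Pax9*, *Col2a1* and *Sox9*), with a median of 0.60 and 13 above 0. Skeletal muscle markers rose in 2 of 7 tested (28.6%, *Pax3* and *Acta1*), with a median of 0.40, 5 above and 2 below 0. Over all genes tested, 2.38% rose. Of 14 skeletal muscle markers, 7 were under 0.1 CPM in every intestinal library, among them *Myog*, *Myf6*, *Pax7* and *Ttn*.

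**Figure D5:**
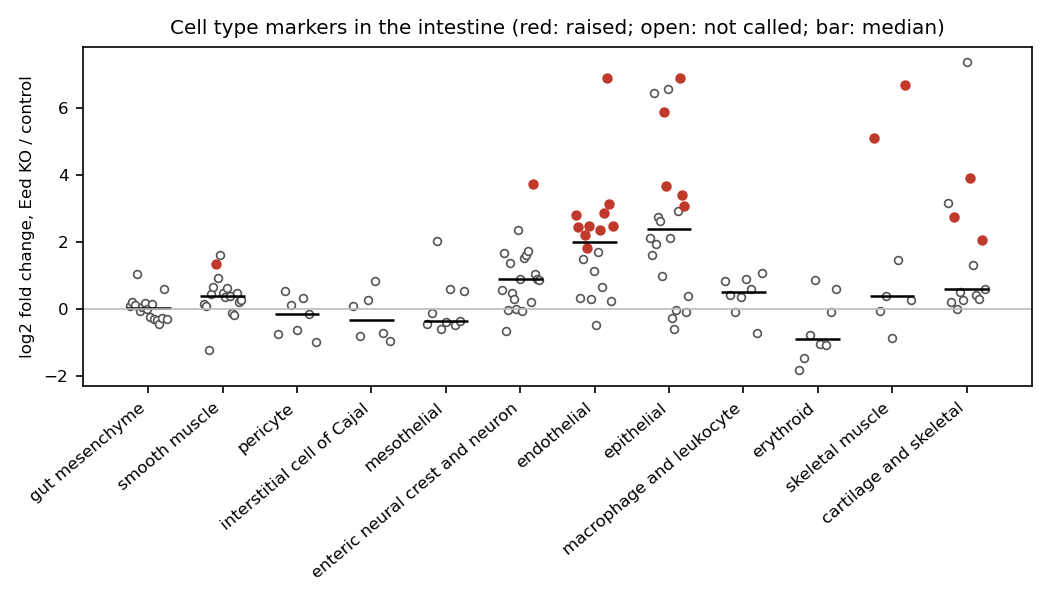
Points give the log2 fold change of each tested marker gene between *Eed* KO and control intestine, grouped by cell type, with raised genes in red, uncalled genes open and the median of each list as a bar. The endothelial list has 10 of 18 members raised and a median of 2.01, and the gut mesenchyme list has a median of 0.03.

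Genes of excitable cells rose at shares above the 2.38% of all genes tested. Potassium channel genes rose in 5 of 74 tested members (6.76%), among them *Kcnh5*, *Kcnh3* and *Kcna7*, and sodium and calcium channel genes in 2 of 30 (6.67%), *Scn7a* and Scn8a. Neurotransmitter receptor genes rose in 7 of 65 members (10.8%), with *Chrna4*, a nicotinic receptor subunit, at 0.534 and 0.404 CPM in the controls against 3.4 and 5.08 CPM with *Eed* KO (log2 fold change 3.15, SE 0.33, adjusted p = 0.0047 from edgeR) as the largest change among them. The metabotropic glutamate receptor gene *Grm3*, the GABA receptor genes *Gabra2* and *Gabra4*, the dopamine receptor gene *Drd4*, the muscarinic receptor gene *Chrm4* and the NMDA receptor gene *Grin2d* were the others. Both GABA receptor genes are neighbours on chromosome 5. Solute carrier genes rose in 7 of 241, or 2.9%, close to the share over all genes.

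Over all adhesion and matrix lists, 10 of 281 tested genes rose (3.56%, against 2.38% of all genes tested). Of 42 tested collagen genes *Col2a1*, the collagen of cartilage, and *Col15a1* rose, by 2.74 and 2.43 on the log2 scale, and *Col25a1* fell from 71.9 and 78.2 to 37.3 and 26.9 CPM (log2 fold change -1.22, SE 0.17, adjusted p = 0.012 from edgeR). *Tnc*, the matrix glycoprotein tenascin C, rose from 18.4 and 19.1 to 50.4 and 51.7 CPM (log2 fold change 1.44, SE 0.17, adjusted p = 0.007 from edgeR) and was the raised member of 55 proteoglycan and matrix genes. In both cases the groups were separate. Tight junction genes rose in 3 of 25 members, *Cldn5*, *Cldn11* and Jam2.

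Genes of antigen presentation rose as a block on chromosome 17. *Psmb9*, *Tap1*, *Psmb8* and *Tap2* are consecutive tested genes between 34181988 and 34216321 on mm10. They encode catalytic subunits of the immunoproteasome and both subunits of the peptide transporter. They were the raised members of 29 listed genes of interferon response and MHC class I (13.8%, against 2.38% of all genes tested). *Psmb8* was at 0 and 0.0337 CPM in the control libraries and 0.607 and 0.856 CPM in the *Eed* KO libraries (log2 fold change 5.28, SE 0.72, adjusted p = 0.012 from edgeR), and *Psmb9* at 0.14 and 0.168 CPM in the controls against 0.712 and 0.542 CPM with *Eed* KO (log2 fold change 2.01, SE 0.40, adjusted p = 0.046 from edgeR). *Tap1* and *Tap2* rose by 1.33 and 1.39 on the log2 scale. All 4 genes were higher in both *Eed* KO libraries. The MHC class I genes *H2-Q6* and *H2-Q7*, which the list did not hold, also rose as neighbours on chromosome 17, *H2-Q6* from 0.534 and 0.673 to 2.16 and 3.54 CPM and *H2-Q7* from 2.08 and 2.15 to 4.43 and 5.76 CPM. Their sequences are close to those of other class I genes, so the split of reads between them is uncertain. The control genotype held no floxed *Eed* allele, and the part of strain background in all these chromosome 17 changes was not tested. The other runs of 3 consecutive raised genes were *Steap3*, *C1ql2* and *En1* on chromosome 1, and *Dlx6os1*, *Dlx6* and *Dlx5* as well as *Hottip*, *5730457N03Rik* and *Evx1* on chromosome 6, and there were 25 raised pairs. *Dlx6os1* overlaps the *Dlx6* locus, and the libraries were stranded, but the count setting was not given in the sources used here, so the split of reads between them is uncertain.

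Lowered genes formed no family of comparable size. Of the 37, 10 were annotated as pseudogenes in GENCODE vM21 (27%, against 3.89% of tested genes), and 22 as protein coding. *Gm13394*, a pseudogene, had 1205 counts in the controls and 2 with *Eed* KO, a 673-fold ratio (95% counting interval 186 to 5564). *Gm3608* fell from 28.2 and 19.4 to 0.264 and 0.285 CPM, and *Gm4737*, *Gm6768*, *Gm12751*, *Gm5611*, *RP23-349K15.2* and *Eif3j2* fell by between 3.59 and 6.96 on the log2 scale. Reads of pseudogenes and of genes with near-identical copies can be assigned to either copy, so these levels are uncertain. The control genotype held no floxed *Eed* allele, and the part of strain background in changes of this kind, lowered or raised, was not tested. Raised pseudogenes numbered 9 of 631 tested (1.43%, below the 2.38% of all genes tested), with *Rps13-ps1* at 3 counts in the controls and 2788 with *Eed* KO, a 832-fold ratio (95% counting interval 284 to 4037), and *Gm8730* at 6.8 and 4.68 CPM in the controls against 140.2 and 197 CPM with *Eed* KO.

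Among lowered protein-coding genes, *Nptx1*, a neuronal pentraxin, fell from 29.6 and 33.2 to 13.4 and 10.2 CPM (log2 fold change -1.41, SE 0.19, adjusted p = 0.011 from edgeR) and *Sgpp2*, a phosphatase of sphingosine 1-phosphate, from 28.5 and 31.7 to 14.7 and 10.1 CPM (log2 fold change -1.28, SE 0.21, adjusted p = 0.022 from edgeR). These decreases are also relative to the median gene. *Klk13* and *Klk14*, kallikrein proteases encoded close together on chromosome 7, fell from 3.68 and 6.66 to 1.11 and 0.999 CPM and from 2.53 and 4.85 to 0.554 and 0.77 CPM. Both had separate groups. *Nmur2*, a receptor of neuromedin U, and *P2ry14*, a receptor of UDP-sugars, fell by 4.54 and 2.16 on the log2 scale. *Sycp1*, a protein of the meiotic synaptonemal complex, had 71 counts in the controls and 1 with *Eed* KO, and lies next to *Nr1h5* on chromosome 3. *Rbm44*, a gene of germ cells, had 51 counts in the controls and none with *Eed* KO, at least 19-fold lower against 3 counts over the 2 *Eed* KO libraries.

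The same contrast in the stomach, in cells sorted in the same way at the same stage, shows how far the intestinal genes were shared. There 785 genes rose (4.84%) and 131 fell (0.808%). Of the 386 genes raised in the intestine, 296 rose in the stomach, which is 76.7% of the intestinal and 37.7% of the gastric list, and their median log2 fold change in the stomach was 2.16. Of the 37 lowered genes 25 fell in the stomach too (67.6% and 19.1% of the 2 lists). *Grm3*, *Sez6* and *Msc* rose in the intestine and fell in the stomach, and *Nptx1* fell in the intestine and rose in the stomach. The libraries of both organs entered 1 fit and share its estimate of the spread. Stomach and intestine were dissected from each animal, and the labels do not say whether same-numbered libraries come from the same embryos. Deviations of same-numbered intestine and stomach libraries from their group means correlated across genes at 0.265 in the control and 0.628 with *Eed* KO, and the spike-in counts of *Eed* KO replicate 1 were 14932 and 12108 in intestine and stomach, against 5501 and 4871 in replicate 2. The genes shared by both organs may therefore not come from independent embryos.

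The difference between the effects in the 2 organs was tested directly, at an adjusted p below 0.2 and a log2 difference larger than 1. It was larger in the intestine for 31 tested genes (0.191%) and smaller for 44 (0.271%). Of the genes raised in the intestine, 11 passed above and 9 below, and of those lowered 2 passed below. With same-numbered libraries of a genotype as a replicate block, 171 genes passed above and 179 below, among them all 31 and 44 of the fit without it. *Barx1*, at 627 and 557 CPM in the control stomach and 379 and 310.3 CPM with *Eed* KO, did not pass in the stomach (log2 fold change -0.78, adjusted p = 0.14 from edgeR) and the organs differed (log2 difference 4.31, SE 0.46, adjusted p = 0.031 from edgeR). *Mecom*, a zinc finger regulator, was at 38.8 and 52.5 CPM in the control stomach and 40.5 and 39.4 CPM with *Eed* KO and in the intestine rose from 0.197 and 0.202 to 1.69 and 2.25 CPM (log2 difference 3.48, SE 0.36, adjusted p = 0.03 from edgeR). In both cases the *Eed* KO intestine stayed far below the stomach. *Grm3*, *Sez6* and *Msc* followed, with log2 differences of 3.84, 3.46 and 3.24.

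In the other direction stood genes that control intestine already expressed. *Hoxc9* had no counts in the control stomach and 6.95 and 6.34 CPM in the *Eed* KO stomach, while its level in the control intestine was 6.69 and 5.82 CPM (log2 difference -9.47, SE 0.58, adjusted p = 0.0081 from edgeR). *Hoxc11*, the long noncoding RNA *Pantr1*, *Gm53* and *Pou3f3* had log2 differences of -8.23, -7.75, -6.30 and -4.70. The sizes of differences that rest on a control at 0 depend on the prior count of the fit and are no bound. With *Eed* KO, *Pou3f3* reached 6.23 and 9.33 CPM in the intestine and 12.9 and 17.2 CPM in the stomach.

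Adult intestinal mesenchyme gave the same genes another setting, in 2 libraries labelled WT and 2 labelled EED-KO, from sorted pericryptal cells with a tamoxifen-inducible *Pdgfrb* driver, an unstranded kit and another library depth. *Eed* itself did not pass the test in the adult, with 29.7 and 33.4 CPM in the adult control libraries and 25.7 and 25 CPM in the libraries labelled *Eed* KO (log2 fold change -0.32, SE 0.21, adjusted p = 0.32 from edgeR), so directions below are those of the labels. These counts cover the whole gene. The study reports separately how efficiently *Eed* was deleted in isolated pericryptal cells, a measurement not used here. Of 15039 genes tested there 1856 rose (12.3%) and 1088 fell (7.23%). Among the 386 genes raised in the embryonic intestine, 202 were tested in the adult, where 45 rose (22.3%) and 15 fell (7.43%), with a median log2 fold change of 0.42. Of the 37 lowered genes, 22 were tested and 5 fell, with none raised at the same thresholds. *Gata4* and *Cdkn2a* were under the low-count filter in the adult.

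In all 3 comparisons 36 genes rose and 4 fell, named after their values were seen. *Cdkn1a* was at 66.6 and 61.4 CPM in the adult control libraries and 590.4 and 1232 CPM in the libraries labelled *Eed* KO (log2 fold change 3.83, SE 0.37, adjusted p = 0.00071 from edgeR), and *Pmaip1* rose by 5.27 on the log2 scale in the adult and 3.62 in the embryonic intestine. *Rps13-ps1* and *Rps15a-ps7* rose in all 3, *Gm12312* fell in all 3, and so did *Sycp1*, *Trim12a* and RP23-349K15.2. The sorted controls of all 3 had a genotype without the floxed *Eed* allele, so a difference in strain background would also recur. Its part in these shared changes was not tested. *Cdkn2c* and *Sox9* moved in the opposite direction in the adult, by -1.33 and -1.18 on the log2 scale.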

How the data were processed

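RNA-seq was done on GFP+ cells sorted from the E13.5 intestine, with the E13.5 stomach and adult intestine for comparison. Libraries of the embryo were stranded poly(A) libraries with ERCC and SIRV spike-ins. The authors trimmed the reads with Trimmomatic 0.32, aligned them with STAR 2.5.1b to mm10 and assigned them to GENCODE vM4 genes with featureCounts, whose version is not given here. The deposited counts per gene symbol are whole numbers without normalization, and each adult table deposited by the authors also has a gene length column. For ATAC-seq the authors aligned each sample with BWA, pooled the filtered reads of replicates and called peaks with MACS2 2.1.2. Each deposited peak has a fold enrichment over background as a ratio and a -log10 q. All columns of deposited values were matched to samples, and no comparison computed by the authors was used.

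Counts were scaled with TMM and fitted with edgeR 4.0.16 (R 4.3.3, limma 3.58.1) after its filter for low counts, with a mean for each of the 4 embryonic groups, which share 1 estimate of the spread (biological coefficient of variation 15.8%). Spike-in rows were left out. CPM values are TMM-scaled. Standard errors came from the fold change and F statistic. For a group without counts a fold is a bound against 3 counts over that group, and with 1 to 3 counts it is a ratio of scaled sums with an exact 95% interval. The smallest two-sided p of an exact permutation test in this design, with 2 libraries on each side, is 0.333. Alternatives were DESeq2 1.42.0, alone or with 1 RUVg factor, RLE and spike-in scaling, no filter, the intestinal libraries alone, a replicate block and each library left out. Tables and figures were made with Python 3.11.15 and pandas 2.3.3. The fit was tested on simulated data.

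Members and gene lists were chosen with earlier results of these data known. Named genes were PRC2 genes, the 10 called genes in each direction with the largest change among those with a mean of at least 1 CPM, the 10 in each direction with the highest level, up to 8 called members of each list, genes the study names for this organ, the most abundant and the absent markers of other cell types, and the 5 with the largest organ difference in each direction. Other genes were named after their values were seen. A few called genes are not reported here by name, and the counts of lists include them.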

Additional observations from a re-analysis of the deposited data

Results flagged for a closer look

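For the genes given here, all called in the intestine, the effect of *Eed* KO differed between intestine and stomach in the test of the difference itself (edgeR, adjusted p under 0.2 and a log2 difference above 1 in size). Each value is the log2 effect in the intestine minus that in the stomach. The effect was higher in the intestine for *Barx1* (4.31), *Grm3* (3.84), *Mecom* (3.48), *Sez6* (3.46), *Msc* (3.24), *Hoxb9* (2.02), *Ptprz1* (1.80), *Sox9* (1.74), *Prss23* (1.56) and *Steap3* (1.49). It was lower in the intestine for *Hoxc9* (-9.47), *Hoxc11* (-8.23), *Pantr1* (-7.75), *Gm53* (-6.30), *Pou3f3* (-4.70), *Ebf2* (-3.21), *Nptx1* (-2.44), *Sgpp2* (-2.07), *Corin* (-2.06), *Cldn11* (-1.67) and *Dsc2* (-1.66), of which *Nptx1* and *Sgpp2* were lowered in the intestine. Each group held 2 libraries, so no library was tested as standing apart from its group.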

How the results depend on the processing

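Most directions held, while the number of calls depended on the fit. Raised genes numbered 13664 with spike-in scaling, 610 with DESeq2, 734 without the low-count filter and 217 when the 4 intestinal libraries were fitted alone, and lowered genes 24 with spike-in scaling, 210 with the RUVg factor, 66 without the filter and 56 with the replicate block. Leaving out 1 library at a time gave 60 to 338 raised and 11 to 28 lowered genes. The log2 fold change of *Eed* was -0.23 with spike-in scaling and -2.08 relative to the shifted median. Organ differences above numbered 0 with spike-in scaling, 99 with DESeq2, 129 with the RUVg factor, 117 without the filter, 83 with the replicate block and 171 with that block within each genotype, an alternative chosen after seeing the data, and those below 20, 107, 106, 120, 104 and 179. With 1 library left out they ranged from 7 to 45 and from 25 to 57. In the adult, 31 to 57 raised and 5 to 6 lowered genes of the intestinal lists moved in the same direction over the alternatives with 1 library left out and the others.

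Scaling to the spike-ins alone turned the sign of the log2 fold change of *Col25a1*, *Hoxa4*, *Hoxa5*, *Hoxaas2*, *Hoxb5*, *Nptx1*, *Pianp*, *Rassf9*, *Sec1* and *Sgpp2*, to 0.53, 0.029, 0.72, 0.53, 0.64, 0.36, 0.38, 0.67, 0.31 and 0.46, all of them lowered genes, and relative to the shifted median their direction held. Of the 157 called single genes that were followed here, without *Eed* and without the lists, 156 kept their direction and call with DESeq2, 157 with the replicate block and 157 without the filter. Of 151, 110 did so with the RUVg factor, and of 157, 107 with the 4 intestinal libraries alone. All others kept their direction and lost the call.

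The replicate block gave 575 raised and 56 lowered genes, and 385 of the 386 raised and all 37 lowered genes were among them. Same-numbered deviations from the group means correlated at 0.0993 between control and *Eed* KO intestine, and nothing in the labels ties these numbers to shared litters or days, so control and *Eed* KO libraries share only a number. Whether same-numbered intestine and stomach libraries of a genotype share embryos is not stated, and their deviations did correlate. The causes of these shifts were not tested. The comparison of CG content with another threshold was not run, since too few genes had a promoter window.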

Other observations

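Some lists described by no result above moved little or not at all. No gene was called by edgeR among 51 protocadherin genes, which encode adhesion proteins of neurons (2 above and 12 below 0 at an unadjusted p under 0.05, and 0 raised and 1 lowered by DESeq2), and their median log2 fold change was -0.11. Of 43 imprinted genes, 1 rose, the placental growth inhibitor *Phlda2*, from 0.899 and 1.08 to 2.93 and 2.43 CPM (log2 fold change 1.44, SE 0.29, adjusted p = 0.045 from edgeR). Among 58 chemokine and interleukin genes the receptor genes *Il27ra*, *Cxcr4* and *Il17ra* rose. None of 45 clustered histone genes was called by edgeR (0 above and 0 below 0 at an unadjusted p under 0.05, and 0 raised and 0 lowered by DESeq2), nor was any of 23 cholesterol synthesis genes (0 above and 1 below 0 at an unadjusted p under 0.05, and 0 raised and 0 lowered by DESeq2).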
